A study of Mus musculus with 8 samples.

Results

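Of the 8 arrays in the series, 4 carry the comparison described here: whole hearts of doxorubicin-treated mice labelled as null for metallothionein I and II (MT-/-, 2 arrays) against hearts of treated wild-type mice (MT+/+, 2 arrays). The arrays were chosen by their source labels alone, and all 45037 probe sets other than the Affymetrix controls belong to the comparison. The mice were males aged 6 to 8 weeks, and each received 1 intraperitoneal dose of doxorubicin (DOX, an anthracycline cancer drug that injures heart muscle) at 15 mg/kg. Hearts were taken on day 4. The other 4 arrays, 2 of each genotype, came from mice given saline, and they are used here to set the genotype difference without the drug beside that with it. The labels call the arrays biological replicates but do not say how many hearts went into each RNA sample. They name neither the strain nor the alleles. RNA was hybridised to 1-colour Affymetrix arrays, and each deposited value is a linear intensity for 1 probe set, a group of short probes against 1 transcript.

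Metallothioneins are small cysteine-rich proteins that bind zinc and copper and react with oxidants. Their genes are switched on by metals through the factor MTF1, and also by glucocorticoids and oxidative stress. DOX forms reactive oxygen species in heart muscle and damages DNA and mitochondria, and heart muscle has been a setting in which metallothionein is studied as a protective protein.

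After DOX, hearts labelled MT-/- had more RNA of the secreted acute phase proteins Serpina3n and Lcn2 than MT+/+ hearts, by 10.2 and 5.76 times, and less of the mitochondrial carrier Ucp3 and the pyruvate dehydrogenase kinase Pdk4, by 5.74 and 3.65 times. Another set of genes, led by Cap1, Ndrg4, Il15 and Plaat1, differed between the genotypes by a similar amount with and without the drug. The limma test of the DOX difference against the saline difference passed for 0 probe sets (smallest adjusted p 0.901). Under saline Serpina3n, Ucp3 and Pdk4 leaned the same way without a call (+1.08, -0.63 and -0.82 log2), while Lcn2 did not (-0.18). In all, 38 of 13008 genes differed after DOX (0.292%), 22 higher (0.169%) and 16 lower (0.123%) on the MT-/- arrays. By probe set the count was 70 of 24751 (0.283%), 37 higher (0.149%) and 33 lower (0.133%). Differences are given as MT-/- minus MT+/+ on a log2(normalized intensity + 16) scale, which understates the differences of dim probe sets, and a fold is 2 raised to that difference. An error after ± is the standard error of the fit with n = 2 arrays per group. The tests are limma tests with Benjamini-Hochberg adjustment over all 24751 probe sets, the threshold is adjusted p 0.05, and "higher" or "lower" without further words means past it. The median difference over all genes was -0.005.

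With the replicate number of the labels as a block in the fit, 383 probe sets passed (1.55%), 206 higher (0.832%) and 177 lower (0.715%). That was 210 genes (1.61%), 113 higher (0.869%) and 97 lower (0.746%), and all 38 genes kept their call. With 1 array left out the count of probe sets fell to 23 without MT+/+ DOX 1, 24 without MT+/+ DOX 2 and 42 without MT-/- DOX 2. Of the 38 genes, 7 kept the call whichever of the 8 arrays was left out: Cap1, Ndrg4, Il15, Plaat1, Zfp991, Pdlim3 and Calr3. The other 31 lost it without at least 1 array, and these losses are given gene by gene.

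The arrays were of like quality. Median deposited intensities lay between 80.0 and 87.4, and the 2 arrays of a group correlated at 0.980 (MT+/+ DOX) and 0.976 (MT-/- DOX). DOX arrays of opposite genotype with the same replicate number correlated as closely, at 0.983 (number 1) and 0.976 (number 2). MT+/+ DOX 2 with MT-/- DOX 1 gave 0.971, and MT+/+ DOX 1 with MT-/- DOX 2 gave 0.968. The share of tested probe sets that differed by more than 1 log2 unit between the 2 arrays was 0.372% in MT+/+ DOX and 0.735% in MT-/- DOX. Heart muscle markers were strong throughout: the summed intensity of 12 cardiomyocyte markers was 150726 and 153266 on the MT+/+ DOX arrays against 152626 and 147907 in MT-/- DOX. The actin control, whose ratio of 3' to 5' signal grows when RNA is degraded, read 0.948 and 1.05 in MT+/+ DOX against 0.913 and 1.18 in MT-/- DOX.

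The targeted genes come first, since they bear on the labels. Mt1, the main metallothionein gene of most tissues, had deposited intensities of 6735 and 9285 on the MT+/+ DOX arrays against 12549 and 12850 in MT-/- DOX. Both arrays labelled MT-/- therefore read above both wild-type arrays. The difference of +0.66 ± 0.12 missed the threshold (adjusted p 0.108), but passed with the replicate block (adjusted p 0.0130) and without MT+/+ DOX 2 (0.0303). A dimmer Mt1 probe set gave -0.23 (adjusted p 0.849). Mt2 read 1210 and 2732 on the MT+/+ DOX arrays against 2218 and 2213, groups that overlap (+0.22 ± 0.30, adjusted p 0.948, or -0.35 without MT+/+ DOX 1). Under saline Mt1 read 3722 and 4034 against 4667 and 5322, and Mt2 read 452 and 485 against 968 and 1018. On these arrays, then, neither gene was lower in hearts labelled MT-/-, so the probe sets do not bear out the label at the RNA level. Where the probes lie relative to the altered part of the genes was not analysed here, and an allele that leaves RNA behind cannot be told from a wrong label by these probe sets. Every direction below is that of the arrays labelled MT-/- against those labelled MT+/+.

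The stretches just upstream of both genes are shown because metals are known to act on these genes through elements in their upstream DNA. They are the 250 bases before the RefSeq start of each gene (build GRCm38.p6), 5′ to 3′ on the gene's strand, with matches to the core of the metal response element, TGCNCNC on either strand, in capitals. Within these 250 bases Mt1 had 1 match and Mt2 had 5. Bases outside them, including those past the RefSeq start, were not searched, so the counts do not compare the whole promoters. This short motif occurs in 44.4% of 32851 such windows over all genes, and a match is no evidence of binding.
Mt1, chr8:94178839-94179088, plus strand: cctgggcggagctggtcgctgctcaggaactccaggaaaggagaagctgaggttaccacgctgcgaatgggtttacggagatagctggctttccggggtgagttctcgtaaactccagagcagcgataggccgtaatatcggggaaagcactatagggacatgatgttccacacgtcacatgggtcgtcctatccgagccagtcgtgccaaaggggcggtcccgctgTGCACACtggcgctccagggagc
Mt2, chr8:94172368-94172617, plus strand: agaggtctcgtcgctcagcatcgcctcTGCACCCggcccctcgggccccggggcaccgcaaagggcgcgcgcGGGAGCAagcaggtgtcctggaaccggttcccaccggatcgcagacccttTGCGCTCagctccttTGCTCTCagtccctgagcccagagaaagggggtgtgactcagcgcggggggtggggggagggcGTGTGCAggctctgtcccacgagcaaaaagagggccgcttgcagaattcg

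Of the other 15 measured genes of a list of metallothionein and zinc handling, none differed, and the median of all 17 was +0.09 (range -0.13 to +0.66). Mtf1, which encodes the metal-sensing activator of Mt1 and Mt2, read 194 and 181 in MT+/+ against 192 and 173 in MT-/- (-0.04 ± 0.13, adjusted p 0.986). Slc30a1, the zinc exporter that MTF1 also controls, read 406 and 409 against 423 and 488 (+0.14 ± 0.13, adjusted p 0.908). Of 11 measured genes of copper and cadmium handling 0 differed, with a median of -0.04.

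Inflammation and the acute phase was the list with the most called genes, all higher on the MT-/- DOX arrays. The lists were chosen with earlier results of these data known, so this rank describes the lists and is no test. Serpina3n, a secreted serine protease inhibitor of the acute phase response, read 199 and 378 on the MT+/+ arrays and 3002 and 3144 on the MT-/- arrays. It was the largest rise of all called genes, +3.36 ± 0.45 or 10.2-fold (adjusted p 0.0252). Under saline it read 123 and 242 against 241 and 651, a difference of +1.08 that was not called (adjusted p 0.558). Lcn2, lipocalin 2, withholds iron from bacteria by binding their siderophores and is made by neutrophils and by injured tissue. It read 208 and 398 against 1737 and 1912, so the lower MT-/- array stood far above the higher MT+/+ array (+2.53 ± 0.27, 5.76-fold, adjusted p 0.00871). Under saline it was low in both genotypes, at 104 and 139 against 88.9 and 117 (-0.18 ± 0.27). Saa3, a serum amyloid A protein made outside the liver in inflammation, read 56.1 and 68.1 against 151 and 123 (+0.99 ± 0.13, adjusted p 0.0258), below the array medians on the MT+/+ side. The call of Serpina3n was lost without any 1 of the 4 DOX arrays (adjusted p 0.0881 to 0.193). That of Lcn2 was lost without MT-/- DOX 2 (0.0512). That of Saa3 was lost without MT+/+ DOX 1 or MT+/+ DOX 2 (0.108 to 0.196) and without any 1 saline array (0.0547 to 0.0604).

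The calprotectin genes had the same pattern without passing. S100a8 and S100a9 encode the subunits of a calcium- and zinc-binding protein complex that fills neutrophils and signals tissue damage. S100a8 read 238 and 273 against 1573 and 1508, a gap with no overlap (+2.47 ± 0.50, adjusted p 0.129, or 0.0197 with the replicate block). S100a9 read 248 and 222 against 1437 and 891 (+2.15 ± 0.41, adjusted p 0.113, or 0.0342 blocked). Under saline both MT-/- arrays lay below both MT+/+ arrays for either gene, with MT+/+ saline 2 at 541 for S100a8 and 448 for S100a9 and the other 3 saline arrays between 101 and 162. Whole-tissue RNA cannot tell more cells of a type from more RNA per cell.

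**Figure D1:**
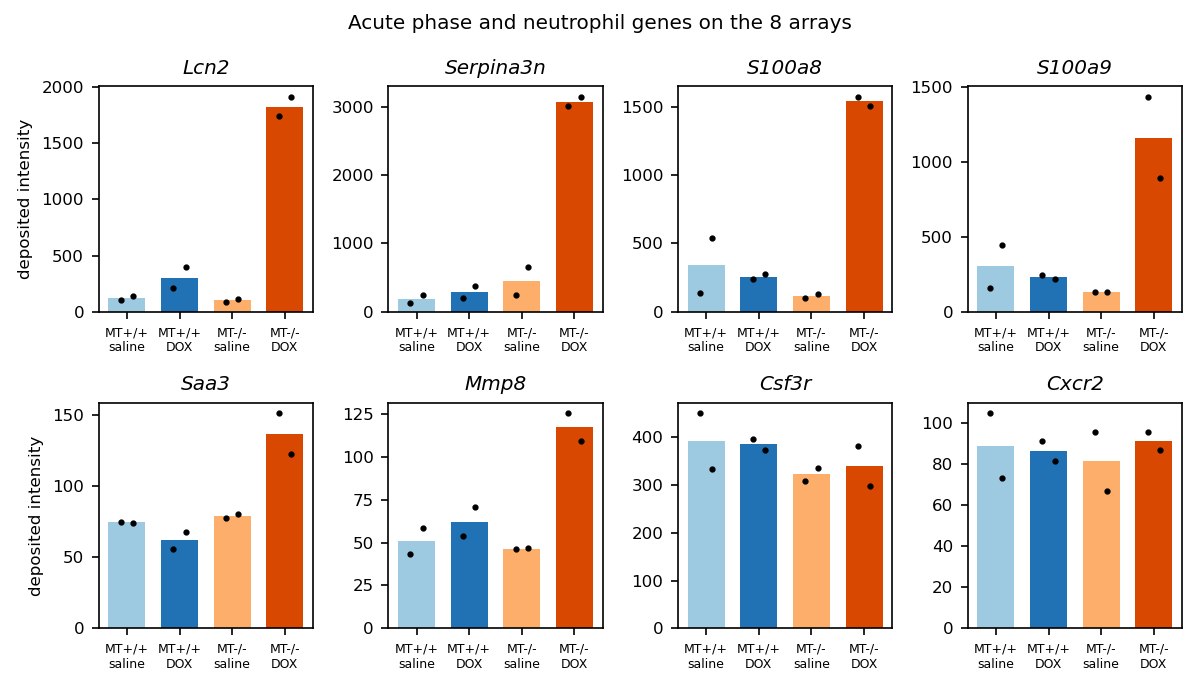
Deposited intensity (vertical axes, linear, each panel with its own range from 0) of 8 acute phase and neutrophil genes in the 4 groups; bars are the mean of 2 arrays and points the single arrays. Lcn2, Serpina3n, S100a8, S100a9, Saa3 and Mmp8 stand highest on the MT-/- DOX arrays, while Csf3r and Cxcr2 do not.

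Over the whole list of inflammation and the acute phase, 3 of 27 measured genes were higher (Lcn2, Serpina3n and Saa3) and 0 lower, with a median of +0.11. The same list had a median of -0.17 under saline with 0 calls. With the replicate block 6 were higher, the further 3 being S100a8, S100a9 and the eosinophil chemokine Ccl11 (+1.14, adjusted p 0.129, or 0.0165 blocked). Ccl11 differed as much under saline (+1.38). Of 9 measured neutrophil markers 1 was higher, Lcn2, which both lists hold, and the median was +0.45 against -0.12 under saline. Mmp8, a collagenase stored in neutrophil granules, read 53.7 and 70.9 against 126 and 109 (+0.80 ± 0.17, adjusted p 0.146, or 0.0320 blocked). The receptors that mark mature neutrophils did not go the same way: Csf3r, the receptor for granulocyte colony-stimulating factor, had -0.19 and the chemokine receptor Cxcr2 +0.10. The summed intensity of the 9 markers was 1648 and 1785 on the MT+/+ DOX arrays against 5828 and 5229 in MT-/- DOX. Under saline it was 1440 and 1982 against 1204 and 1179. Lcn2, S100a8 and S100a9 read 1737, 1573 and 1437 on MT-/- DOX 1, and 1912, 1508 and 891 on MT-/- DOX 2. They made up most of the sum there, so it adds little to the values of these genes. The part of neutrophil number in the results for Lcn2, S100a8 and S100a9 was not tested.

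The upstream stretches of the 3 called acute phase genes are shown because inflammatory induction of such genes is known to run through NF-kB and C/EBP factors. They are again the 250 bases before the RefSeq start (build GRCm38.p6). Capitals mark GGG and CC with any 5 bases between them, the outer letters of the NF-kB site, and TTNCNNAA, a loose C/EBP core, on either strand.
Lcn2, chr2:32387740-32387989, minus strand: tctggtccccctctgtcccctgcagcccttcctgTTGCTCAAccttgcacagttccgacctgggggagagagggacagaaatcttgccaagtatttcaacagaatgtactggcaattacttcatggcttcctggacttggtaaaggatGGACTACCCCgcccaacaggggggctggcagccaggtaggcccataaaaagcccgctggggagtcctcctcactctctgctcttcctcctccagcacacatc
Serpina3n, chr12:104406458-104406707, plus strand: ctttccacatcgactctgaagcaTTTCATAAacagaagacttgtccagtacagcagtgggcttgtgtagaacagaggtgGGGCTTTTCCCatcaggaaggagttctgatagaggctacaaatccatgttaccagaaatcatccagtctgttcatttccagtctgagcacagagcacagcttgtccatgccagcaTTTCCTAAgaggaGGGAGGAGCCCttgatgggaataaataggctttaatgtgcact
Saa3, chr7:46715677-46715926, minus strand: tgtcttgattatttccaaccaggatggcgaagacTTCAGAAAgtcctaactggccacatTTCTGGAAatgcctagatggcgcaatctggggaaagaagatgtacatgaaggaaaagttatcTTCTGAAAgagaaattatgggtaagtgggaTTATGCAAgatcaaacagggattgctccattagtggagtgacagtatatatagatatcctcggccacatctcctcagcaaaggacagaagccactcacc
The first motif had 1 match in Lcn2, 4 in Serpina3n, which overlap in pairs, and 0 in Saa3. The second had 1, 2 and 4. Of all 32851 windows, 45.8% hold the first motif and 36.8% the second, so holding at least 1 match sets none of these genes apart. How often a window holds 4 matches was not counted.

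Chil3 encodes a secreted chitinase-like protein of macrophages and neutrophil precursors. It read 81.2 and 67.7 on the MT+/+ DOX arrays against 212 and 257 (+1.47 ± 0.17, 2.77-fold, adjusted p 0.0138), and all 4 saline arrays read between 19.7 and 31.8. Gpx3, the secreted glutathione peroxidase of plasma, read 4032 and 4941 against 8526 and 7455 (+0.79 ± 0.11, adjusted p 0.0311). Lox, the copper enzyme that cross-links collagen and elastin, read 190 and 190 against 408 and 498 (+1.17 ± 0.14, adjusted p 0.0138), and its other tested probe set gave +1.41 (adjusted p 0.0382). In each of these 3 genes both MT-/- DOX arrays stood above every other array. Eda, a ligand of the tumour necrosis factor family, read 110 and 117 against 218 and 234 (+0.89 ± 0.11, adjusted p 0.0140), with saline arrays between 93.8 and 101. The mean of its 2 tested probe sets gave +0.45 (adjusted p 0.193). The calls of Chil3 (adjusted p 0.0682 and 0.125) and Lox (0.124 and 0.129) were lost without either MT+/+ DOX array, that of Lox also without MT-/- DOX 2 (0.0797). Eda lost its call without any 1 of the DOX arrays (0.0536 to 0.148) and Gpx3 without any 1 of the 8 arrays (0.0518 to 0.220).

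Ucp3, Pdk4 and Plin5 were among the genes that were lower. Ucp3, a carrier of the inner mitochondrial membrane that rises with fatty acid use, read 513 and 510 on the MT+/+ DOX arrays against 91.5 and 59.7 for MT-/- DOX. The MT-/- DOX arrays were the lowest of all 8, and the MT+/+ DOX arrays the highest (-2.52 ± 0.24, 5.74-fold lower, adjusted p 0.00452). A dimmer probe set gave -1.55 (adjusted p 0.00871). Pdk4 shuts pyruvate dehydrogenase and so spares glucose while fatty acids are burnt. It read 5379 and 6830 against 1493 and 2025 (-1.87 ± 0.25, 3.65-fold lower, adjusted p 0.0258). Under saline the differences were -0.63 for Ucp3 and -0.82 for Pdk4, neither called. Plin5, which coats lipid droplets in oxidative tissue, read 1881 and 2139 against 1155 and 1135 (-0.85 ± 0.13, adjusted p 0.0446), and its other probe set gave -0.79 (0.0339). The saline arrays of both genotypes read between 1094 and 1345 for Plin5, so here the MT+/+ DOX arrays were the ones that stood apart. Angptl4, an inhibitor of lipoprotein lipase, read 226 and 201 against 97.1 and 83.3 (-1.09 ± 0.21, adjusted p 0.108, or 0.00656 blocked).

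The call of Ucp3 was lost without either MT+/+ DOX array (adjusted p 0.0568 and 0.0502). The call of Pdk4 was lost without any 1 of the DOX arrays (0.0797 to 0.234) or either MT+/+ saline array (0.0579 and 0.0566), and that of Plin5 without any 1 of the 8 arrays (0.0699 to 0.332) and under both other scalings (0.0772 with the deposited values and 0.142 after median scaling). Over a list of 26 measured genes of fatty acid oxidation 2 were lower (Ucp3 and Pdk4) and 0 higher, with a median of -0.11 and 4 of the 26 above 0, or -0.04 and 10 of 26 after median scaling. By replicate number the medians were -0.28 and +0.04. Of the enzymes of the oxidation cycle, Echs1 had -0.22 ± 0.10 (adjusted p 0.715) and Decr1 -0.22 ± 0.12 (0.751). Glucocorticoid and fasting genes, of which Pdk4 is a member, had 1 of 24 lower and 0 higher, with a median of +0.24 against -0.29 under saline. Fkbp5, a chaperone gene strongly induced by glucocorticoids, read 663 and 1186 against 1292 and 2036 (+0.80 ± 0.26, adjusted p 0.456).

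**Figure D2:**
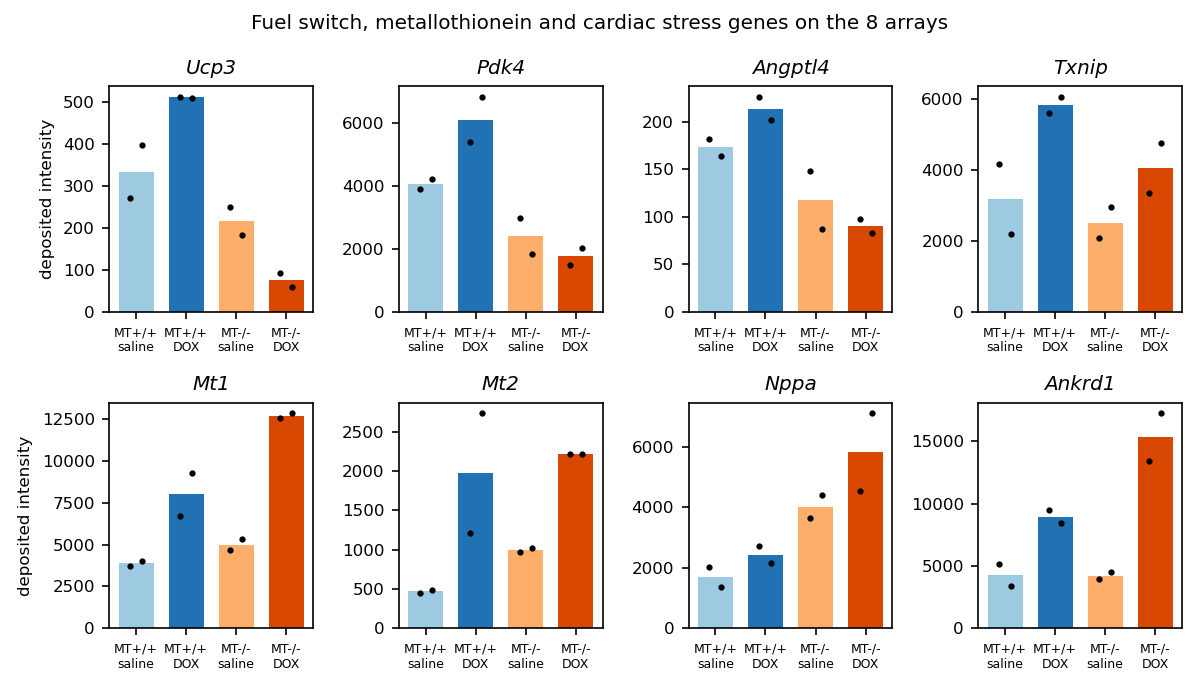
Deposited intensity (vertical axes, linear, each panel with its own range from 0) of fuel, metallothionein and cardiac stress genes in the 4 groups; bars are the mean of 2 arrays and points the single arrays. Ucp3, Pdk4 and Angptl4 have their lowest group mean on the MT-/- DOX arrays, Mt1 has its highest there, and the Mt2 arrays of the 2 DOX groups overlap.

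Of 38 measured subunits of oxidative phosphorylation 0 differed. The median was -0.14, and 4 of the 38 had a value above 0, or 12 of 38 with a median of -0.07 after median scaling. On 22 of them both MT-/- arrays lay below both MT+/+ arrays, where 17.7% of all genes did so. The lowest value of the list was that of Cox7a1, a muscle subunit of cytochrome oxidase, which read 6755 and 7546 against 5107 and 6038 (-0.39 ± 0.08, adjusted p 0.157, or 0.0278 blocked). A list of mitochondrial biogenesis and dynamics had 0 calls of 17 and a median of -0.17. In the breakdown of branched-chain amino acids, Mccc1, a subunit of the carboxylase that acts on leucine, was the 1 lower gene of 16. It read 828 and 1020 against 344 and 419 (-1.25 ± 0.15, adjusted p 0.0173) and was also lower under saline (-1.37, adjusted p 0.0130). Its other probe set gave -0.30 (adjusted p 0.728), and its call was lost without MT+/+ DOX 1 (0.0698), MT+/+ DOX 2 (0.160) or MT-/- DOX 1 (0.0676). Tecr, a reductase of very long chain fatty acid synthesis, read 2791 and 2531 against 1643 and 1452 (-0.84 ± 0.13, adjusted p 0.0417), and its other probe set gave -0.90 (0.0230). Tecr lost its call without 7 of the 8 arrays (0.0675 to 0.302) and after median scaling (0.0741).

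Genes that mark a stressed or failing heart leaned upward without passing. Of 14 measured members of the cardiac stress list 13 had a value above 0, the median was +0.30, and 0 were called. The median was +0.37 under saline. Nppa, the atrial natriuretic peptide, read 2710 and 2154 against 4546 and 7116 (+1.22 ± 0.24, adjusted p 0.129, or 0.0392 blocked), and differed as much under saline (+1.17). Nppb, the B-type peptide, read 4657 and 2847 against 5633 and 10131 (+1.04 ± 0.39, adjusted p 0.558). Ankrd1, a stretch-responsive protein of the sarcomere and nucleus, read 9472 and 8447 against 13418 and 17243 (+0.78 ± 0.20, adjusted p 0.290). Under saline its groups overlapped, at 5188 and 3379 against 3947 and 4509. Ccn2, a matricellular protein induced by TGF-beta, read 1910 and 1644 against 2549 and 11151, so the group mean rested on MT-/- DOX 2 alone (+1.54 ± 0.53, adjusted p 0.499). Myh7, the slow myosin heavy chain, read 13256 and 14751 against 15772 and 17349 (+0.30 ± 0.12, adjusted p 0.616). Fhl1, a LIM protein of stressed muscle, had +0.60 (adjusted p 0.277, or 0.0116 blocked). Pam, the enzyme that amidates peptides and a main protein of atrial granules, was higher, at 1473 and 1561 against 2795 and 3108 (+0.90 ± 0.12, adjusted p 0.0258), and it was the 1 called gene of 8 atrial muscle genes. Its call was lost without any 1 of the DOX arrays (0.0620 to 0.195), without either MT-/- saline array (0.0652 and 0.0642) and after median scaling (0.0570). The summed intensity of the 8 atrial genes was 5280 and 4941 on the MT+/+ DOX arrays against 8317 and 11286, and under saline 4860 and 3934 against 7215 and 8448. Nppa is 1 of the 8. The markers Myl4, Myl7 and Bmp10 had -0.27, -0.42 and +0.09, and the part of atrial tissue in the Nppa and Pam values was not tested.

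Oxidant and drug responses had few calls. Of 21 measured targets of NRF2, the main regulator of antioxidant genes, 20 had a value above 0 with a median of +0.22, and 0 were called. Both MT-/- DOX arrays were above both MT+/+ arrays for 14 of the 21, where 16.5% of all genes did so. Hmox1, haem oxygenase, read 144 and 190 against 251 and 376 (+0.83 ± 0.19, adjusted p 0.201, or 0.0380 blocked). Nqo1, which reduces quinones, read 1093 and 1192 against 1611 and 1561 (+0.43 ± 0.16, adjusted p 0.525). Gclm, a subunit of the enzyme that limits glutathione synthesis, had +0.42 (adjusted p 0.520). The 1 member of the list below 0 was Gsta4, a glutathione transferase for lipid aldehydes (-0.46, adjusted p 0.529). Of 18 antioxidant enzymes 1 was called, Gpx3. Of 19 p53 targets 0 were called, with a median of +0.03. Cdkn1a, the cell cycle inhibitor p21, read 752 and 1423 against 1285 and 2182, groups that overlap (+0.63 ± 0.29, adjusted p 0.689). Lists of cell death (15 measured), topoisomerases and DNA repair (22) and anthracycline metabolism and efflux (16) had 0 calls, with medians of +0.04, -0.02 and +0.03.

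Among immune genes, those of antigen presentation and of the interferon response lay on opposite sides of 0, and 0 of either list were called. Of 7 measured MHC class II genes 6 had a value above 0, with a median of +0.60 after DOX and +0.66 under saline. Cd74, the invariant chain, read 308 and 224 against 510 and 766 (+1.18 ± 0.26, adjusted p 0.172, or 0.0488 blocked). Of 28 interferon-induced genes 4 had a value above 0, or 6 after median scaling, with medians of -0.28 after DOX and -0.51 under saline. Rsad2, the antiviral protein viperin, read 385 and 517 against 277 and 229 (-0.79 ± 0.21, adjusted p 0.290). All 15 macrophage markers had a value above 0, as they did under both other scalings, with a median of +0.14 and 0 calls. Their summed intensity was 6371 and 7493 on the MT+/+ DOX arrays against 7929 and 8615. Of the T and NK cell markers 3 of 8 were below the array median on every array, and of the B cell markers 4 of 5. They summed to 866 and 817 on the MT+/+ DOX arrays against 838 and 794 for T and NK cells, and to 485 and 471 against 483 and 436 for B cells.

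Growth factor and matrix genes were split. Of 28 measured genes of TGF-beta and growth factors 0 passed, with a median of +0.11, but with the replicate block 5 were higher and 1 lower. Tgfbr2, a TGF-beta receptor, read 467 and 575 against 838 and 1067 (+0.82 ± 0.19, adjusted p 0.206, or 0.00693 blocked). Igfbp3, a carrier of insulin-like growth factors, read 565 and 512 against 851 and 1337 (+0.94 ± 0.19, adjusted p 0.140, or 0.0385 blocked). Fgf1, a fibroblast growth factor with no signal peptide, read 1255 and 1299 against 775 and 695 (-0.80 ± 0.14, adjusted p 0.0841, or 0.0172 blocked). Of 30 matrix genes 1 was higher, Lox, and the median was +0.06. Mmp2, a gelatinase that lies near Mt1 on chromosome 8, had +1.09 (adjusted p 0.0728, or 0.0113 blocked), and +0.91 under saline. Ogn, a small leucine-rich proteoglycan of the matrix, was lower, at 1224 and 1320 against 736 and 749 (-0.78 ± 0.12, adjusted p 0.0417). Its call was lost without any 1 of the 8 arrays (0.0885 to 0.306), with the deposited scaling (0.0937) and after median scaling (0.157). Fibroblast markers summed to 19216 and 17531 against 19596 and 19668, and 0 of 12 were called.

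**Figure D3:**
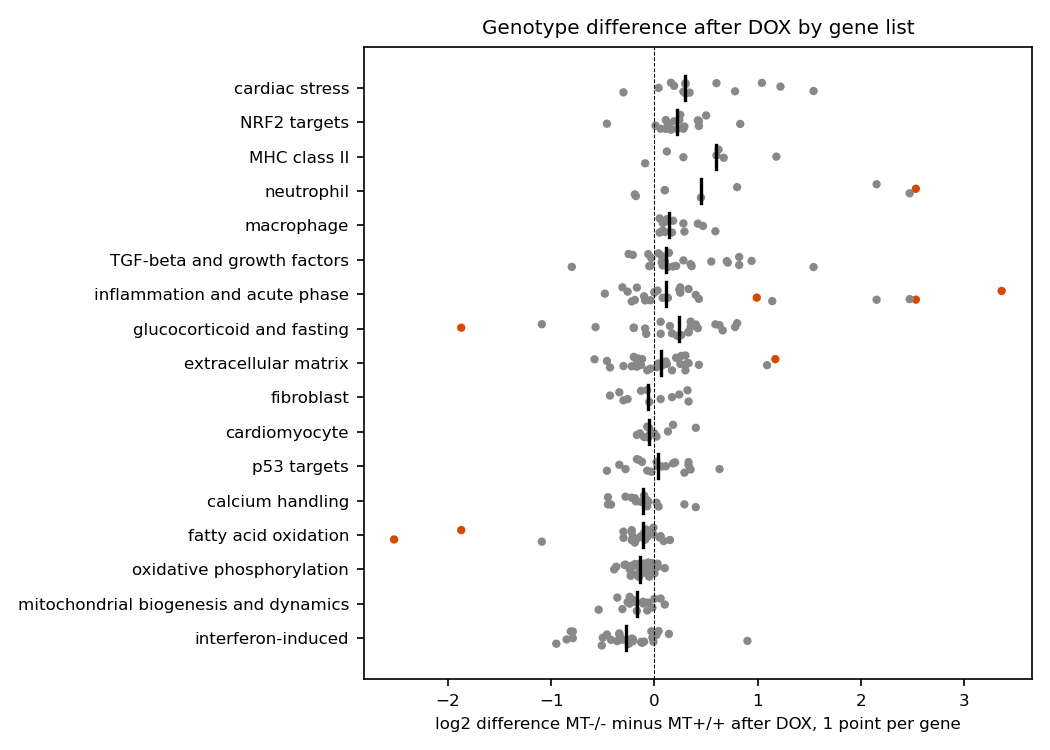
Difference MT-/- minus MT+/+ after DOX (horizontal axis, log2) of each measured gene of 17 lists; points are genes, spread vertically only for sight, orange points passed adjusted p 0.05, and black bars are list medians. Called genes lie in the neutrophil, inflammation, glucocorticoid, matrix and fatty acid lists, and the list medians lie between -0.28 (interferon-induced) and +0.60 (MHC class II).

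Of the 51 lists described in this comparison, 34 of pathways and 17 of cell types, 8 held a called gene and 43 held none. A gene can sit in more than 1 list, so Lcn2 and Pdk4 each count in 2 of these 8.

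The saline arrays, which share no array with the DOX arrays, gave the same contrast without the drug. There 23 genes differed (0.177%), 14 higher (0.108%) and 9 lower (0.0692%). By probe set the count was 46 (0.186%), 27 higher (0.109%) and 19 lower (0.0768%). Both comparisons called 16 genes, 42.1% of the DOX calls and 69.6% of the saline calls, and all 16 had the same sign in both (9 higher and 7 lower). The DOX and saline tests of a probe set use the same residual variance, from the fit over all 8 arrays. The overlap of calls is therefore not that of independent tests. The signs of all 13008 genes were equal in 62.8%, and the correlation of the differences across genes was 0.493, as a description with no test since genes are not independent replicates.

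**Figure D4:**
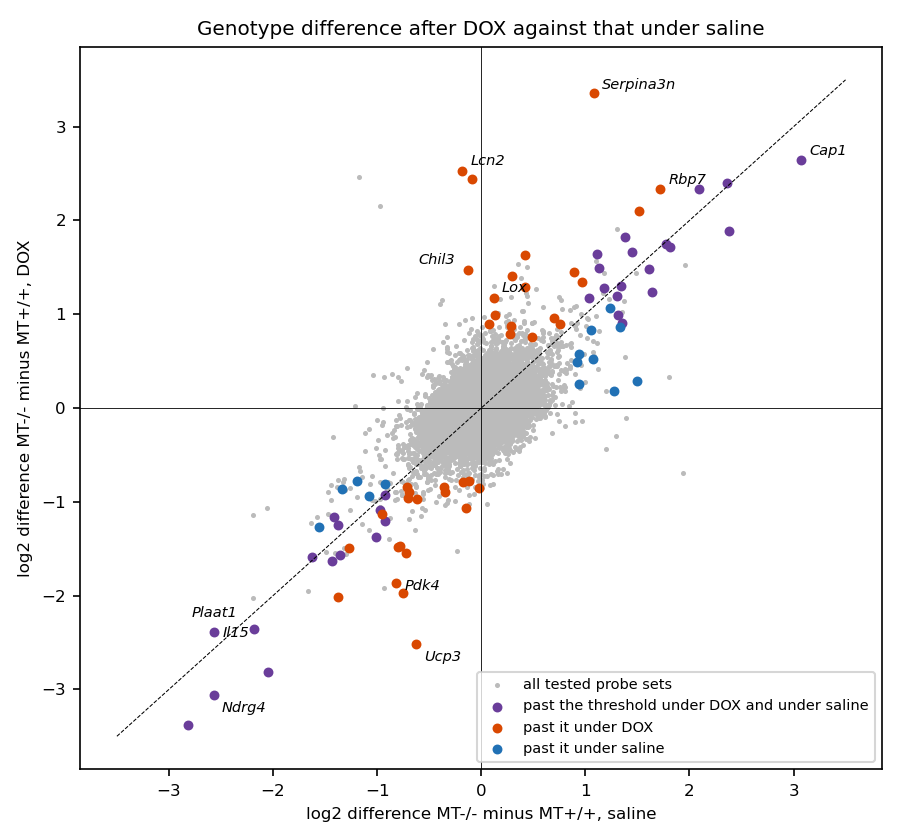
Difference MT-/- minus MT+/+ after DOX (vertical axis, log2) against that under saline (horizontal axis, log2) for the 24751 tested probe sets; colours mark probe sets past adjusted p 0.05 under both, under DOX or under saline, and the dashed line marks equal differences. Cap1, Ndrg4, Il15 and Plaat1 lie near the line, while Lcn2, Serpina3n and Chil3 lie far above it and Ucp3 and Pdk4 below it.

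All 7 genes that kept their DOX call whichever array was left out were among the 16. Cap1, an actin-binding protein that speeds filament turnover, read 56.2 and 55.5 on the MT+/+ DOX arrays against 438 and 429 (+2.65 ± 0.15, 6.26-fold, adjusted p 0.000226), and +3.07 under saline. Ndrg4, a cytoplasmic protein of heart and brain, read 2801 and 2201 against 253 and 329 (-3.06 ± 0.17, 8.33-fold lower, adjusted p 0.000226). Its second probe set gave -3.38. Il15, a cytokine that keeps NK and CD8 T cells alive, read 264 and 386 against 41.6 and 53.6 (-2.38 ± 0.18, 5.22-fold lower, adjusted p 0.00126), so the MT-/- arrays lay below the array median. Plaat1, a phospholipase and acyltransferase, read 368 and 368 against 54.0 and 60.5 (-2.36 ± 0.13, 5.13-fold lower, adjusted p 0.000226). Under saline Ndrg4 had -2.57, Il15 -2.56 and Plaat1 -2.18. Readings under the array medians, such as those of Cap1 in MT+/+ hearts, are dim, so these folds are rough.

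The remaining shared genes differed less. Pdlim3, a LIM protein of the Z-disc, read 252 and 191 against 699 and 765 (+1.64, adjusted p 0.00500), and had +1.11 under saline (adjusted p 0.0446). Zfp991, a zinc finger gene, read 56.3 and 53.6 against 223 and 222 (+1.75, adjusted p 0.000618). Calr3, a calreticulin of the testis, read 132 and 149 against 441 and 412 (+1.49, adjusted p 0.00126). A second of the 3 tested Calr3 probe sets gave +1.45 (adjusted p 0.00871). Both genes also have a tested probe set with the opposite sign, -1.26 (adjusted p 0.0517) for Zfp991 and -0.81 (0.0519) for Calr3, so the direction differs between probe sets. Smim10l1 read 437 and 412 against 1680 and 1306 (+1.71, adjusted p 0.00380), while its other probe set gave -0.01. Ocel1 read 105 and 98.8 against 320 and 233 (+1.30, adjusted p 0.0242). Atp10d, a subunit of a phospholipid flippase, read 65.1 and 75.4 against 220 and 167 (+1.28, adjusted p 0.0230). Timmdc1, an assembly factor of respiratory complex I, read 138 and 144 against 364 and 316 (+1.17, adjusted p 0.0168), and Frg1, a protein linked to RNA processing, read 170 and 171 against 372 and 343 (+0.99, adjusted p 0.0274). On all of these the MT-/- saline arrays were also above the MT+/+ saline arrays. Smim10l1 lost its DOX call without MT+/+ DOX 2 (0.0502), and Atp10d (0.0851 to 0.191) and Timmdc1 (0.0651 to 0.149) without MT+/+ DOX 1, MT+/+ DOX 2 or MT-/- DOX 1. Ocel1 lost it without those 3 arrays (0.0628 to 0.209) or either MT+/+ saline array (0.0502 at most), and Frg1 without any 1 of the DOX arrays or either MT+/+ saline array (0.0626 to 0.228).

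Lower in both comparisons were also Pgap2, an enzyme that remodels the lipid of GPI anchors, Stk25, a kinase of the Golgi, and Gdpd1, a phosphodiesterase of lysophospholipids. Pgap2 read 621 and 565 against 238 and 259 (-1.21, adjusted p 0.00871), Stk25 read 418 and 451 against 188 and 206 (-1.08, adjusted p 0.0144), and Gdpd1 read 282 and 291 against 154 and 132 (-0.92, adjusted p 0.0242). In none of them did the genotypes overlap, and after DOX this held for all 38 called genes. Among all genes, 16.5% had both MT-/- DOX arrays above both MT+/+ DOX arrays and 17.7% had both below. A call with 2 arrays per group favours such a gap, so it adds no support to the calls. Pgap2 lost its DOX call without either MT+/+ DOX array (0.113 and 0.0575), Stk25 without any 1 of the DOX arrays (0.0606 to 0.133), and Gdpd1 without 3 of the DOX arrays (MT+/+ DOX 1, MT+/+ DOX 2 and MT-/- DOX 2, 0.140 to 0.179) or either MT-/- saline array (0.0641 and 0.0633).

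The other 22 genes passed after DOX and not under saline, 13 higher and 9 lower. With the replicate block 5 of them passed under saline too, in the same direction: Rbp7 (adjusted p 0.00839), Nedd1 (0.00769), Pam (0.00752), 6820431F20Rik (0.0286) and Myocd (0.0378). A call after DOX alone does not make a difference particular to the drug. The interaction, the DOX difference minus the saline difference, passed for 0 probe sets (smallest adjusted p 0.901). Of the 24751 probe sets 573 had an unadjusted limma interaction p under 0.05. That share is itself below 0.05, so the count is no sign of drug-dependent differences. With the replicate block it passed for 1 (0.00404%), Lcn2 (+2.71, adjusted p 0.0222). It also passed for 1 without MT+/+ saline 1, S100a8 (+4.66, adjusted p 0.00226), whose saline difference then rested on the high MT+/+ saline 2 array. Without the block Lcn2 had the interaction value +2.71 with an unadjusted p of 6.62e-05, Chil3 +1.59 (0.000129), Ucp3 -1.89 (0.000425), Lox +1.05 (0.000488), Plin5 -0.83 (0.00152) and Serpina3n +2.27 (0.00622), and none of these passed after adjustment over all probe sets. Of the 38 genes 14 had a saline difference under 0.5 times the size of the DOX difference. An unadjusted limma interaction p under 0.05 was found for 16 of them, and for 325 of all 13008 genes. The 38 were picked by their DOX difference, which is part of the interaction. That choice favours both counts and the low unadjusted p-values of the genes just named, so none of these is support for a drug-dependent difference.

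Rbp7, Ahnak2 and Myocd were among the genes higher after DOX without a saline call. Rbp7, a retinol-binding protein of endothelium and fat, read 427 and 424 against 2416 and 2219 (+2.34, 5.06-fold, adjusted p 0.0119), with +1.72 under saline (adjusted p 0.0682, or 0.00839 blocked). Ahnak2, a very large scaffold protein, read 98.5 and 131 against 321 and 470 (+1.63, adjusted p 0.0242) and differed by +0.42 under saline. Myocd, the coactivator myocardin that drives muscle genes with SRF, read 238 and 198 against 693 and 491 (+1.35, adjusted p 0.0389), but its other probe set gave -0.39 (adjusted p 0.668). Rbp7 lost its call without any 1 of the DOX arrays (0.0512 to 0.122). Ahnak2 lost it without MT+/+ DOX 1, MT+/+ DOX 2 or MT-/- DOX 2 (0.0929 to 0.193), and Myocd without any 1 array but MT-/- DOX 2 (0.0716 to 0.300).

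Among the falls without a saline call, Irx3, an Iroquois transcription factor of the ventricular conduction system, read 818 and 572 against 220 and 260 (-1.47, adjusted p 0.0311). Nedd1, which brings gamma-tubulin to the spindle, read 381 and 594 against 167 and 151 (-1.49, adjusted p 0.0258), with -1.27 under saline (0.0744, or 0.00769 blocked). Ttc30b, a part of the transport machinery of cilia, read 276 and 303 against 153 and 107 (-1.07, adjusted p 0.0471). The unnamed transcript 1700120C14Rik read 465 and 483 against 237 and 232 (-0.97, adjusted p 0.0382). In each of these both MT-/- arrays were below both MT+/+ arrays after DOX, which the naming rule required and which held for 17.7% of all genes. Irx3 lost its call without MT+/+ DOX 1, either MT-/- DOX array or either MT+/+ saline array (0.0630 to 0.187) and after median scaling (0.0595). Nedd1 lost it without MT+/+ DOX 2, either MT-/- DOX array or either MT-/- saline array (0.0511 to 0.153), Ttc30b without any 1 array but MT-/- DOX 1 (0.0792 to 0.307), and 1700120C14Rik without any 1 of the 8 (0.0511 to 0.267). The latter 2 also lost it with the deposited scaling (0.0564 and 0.0616) and after median scaling (0.0733 and 0.0865).

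**Figure D5:**
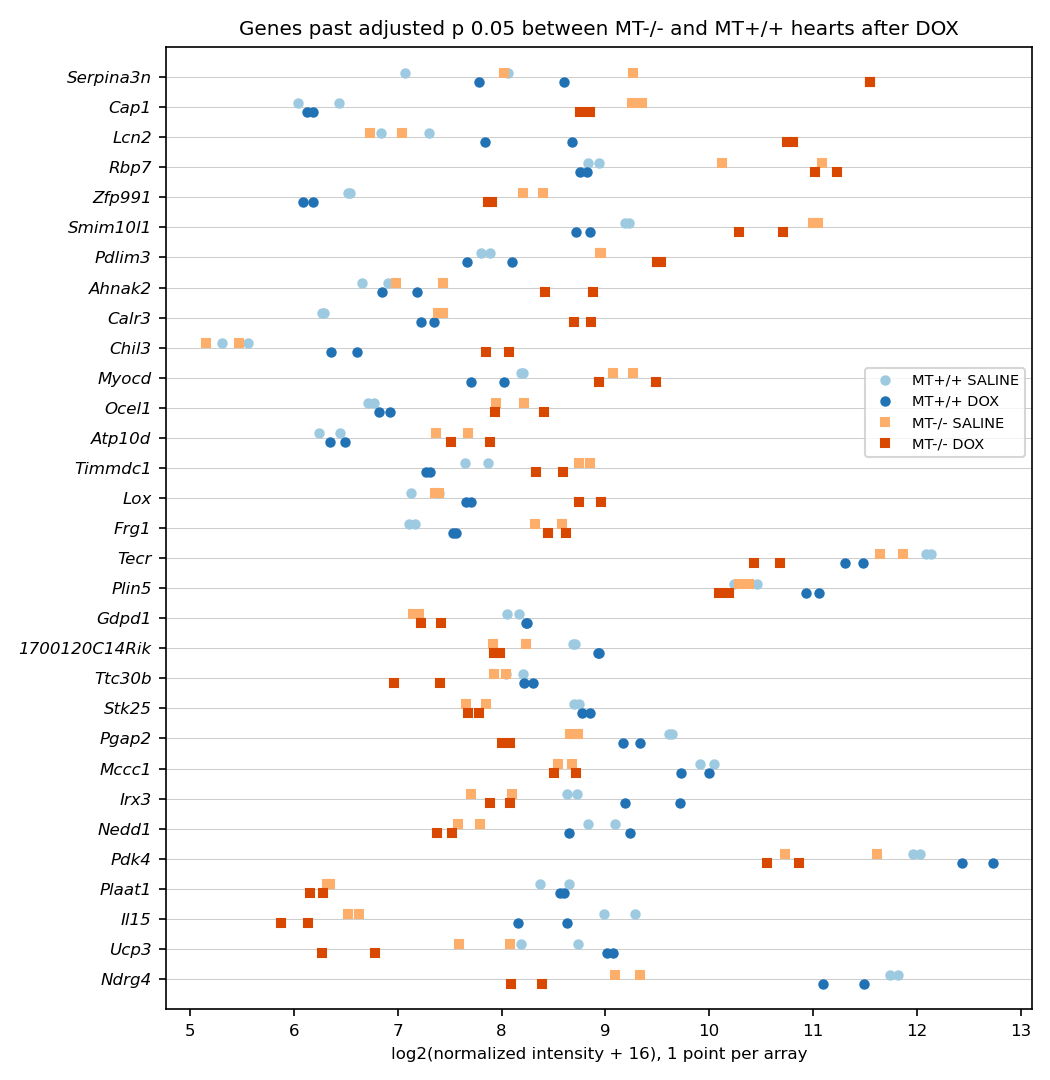
Normalized intensity (horizontal axis, log2 of intensity + 16) of the 31 genes past adjusted p 0.05 after DOX that the naming rule picked, 1 point per array, in the order of their difference. The MT-/- DOX squares are to the right of the MT+/+ DOX circles from Serpina3n down to Frg1 and to the left of them from Tecr down to Ndrg4.

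The rule for naming picked 31 of the 38 called genes. The other 7 are given here, having been chosen after their values were seen: Saa3, Gpx3, Pam, Eda and Ogn, described above, and 2 more. Hyi, a hydroxypyruvate isomerase, read 133 and 142 against 232 and 254 (+0.75, adjusted p 0.0340), and the transcript 6820431F20Rik read 160 and 132 against 285 and 317 (+0.96, adjusted p 0.0354). Both lost the call without any 1 of the 8 arrays (0.0703 to 0.234 for Hyi and 0.0568 to 0.272 for 6820431F20Rik).

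A further 13 gene symbols were called only on a probe set dimmer than the one that stood for the gene, with 15 probe sets in all. On 6 of these 15 the called value had the opposite sign to the brightest probe set of the gene. Xaf1, an interferon-induced apoptosis factor, had +1.88 on the called probe set and -0.36 on the brightest. Prdx2, a cytosolic peroxiredoxin, had -1.57 against +0.17, and Riok3, a kinase of the small ribosomal subunit pathway, had -1.97 against +0.58. For these genes the array gives no single direction. The remaining 8 called probe sets carried several symbols or none and were not named.

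By chromosome, the called genes were not spread evenly. Chromosome 8, which carries Mt1 and Mt2, held 9 of the 38, which is 1.27% of its 706 tested genes, against 29 of 12302 (0.236%) on all other chromosomes. Those 9 were Ndrg4, Il15, Pdlim3, Calr3, Irx3, Ocel1, Frg1, Tecr and 6820431F20Rik, and 6 of them were called under saline too. Ndrg4 lies 35 and Irx3 lies 24 protein-coding genes from Mt1, and the others whose place was found lie 116 or more away. Among the 20 genes on each side of the Mt1 and Mt2 pair, 29 were tested, 0 were called, and the median was +0.04. With the replicate block 1 was higher, Mmp2.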

How the data were processed

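Whole-heart RNA of 8 samples was measured, 1 array each. RNA was isolated with Trizol and made into biotinylated cRNA, per the labels' protocols. The deposited values are linear intensity values per probe set, made by the authors with GCOS 1.4 per the submitters' processing notes; its signal algorithm and scaling target were not known here, and no detection calls were used. Of 45101 probe sets, 64 controls were left out. In the platform annotation 34958 probe sets had 1 symbol, 932 had several and 9211 had none, and 34754 matched the RefSeq table (GRCm38.p6) by Entrez number. That table gave gene order, and RefSeq's promoter table of the same build gave the sequences.

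Arrays were quantile-normalized, and log2(intensity + 16) was tested on the 24751 probe sets that reached the median of their array on 2 or more of the 8 arrays. Limma 3.58.1 in R 4.3.3 fitted 4 group means over all 8 arrays (eBayes with trend, 4 residual and 4.66 prior degrees of freedom), two-sided, with Benjamini-Hochberg adjustment over all probe sets tested. A gene is its brightest tested probe set. Tables were handled in Python 3.11.15 with pandas 2.3.3. The fits were also run on simulated arrays with independent errors. Those lacked the shared deviations of same-numbered arrays described below, so they do not show how the fits behave under such pairing.

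Groups and replicate numbers came from the labels. Deviations of same-numbered arrays from their group means correlated at 0.360 to 0.542 in all 6 pairs of groups (0.459 between the DOX groups). The numbers therefore served as a block in an alternative fit, from the data and not from the labels. The fit without the block stayed the main one, so its counts and errors ignore any pairing (38 genes against 210 blocked). Blocked values stand beside named genes where they change a call. The labels call the samples biological replicates but do not say how many hearts each held. The p-values therefore measure the spread between these samples, and whether that is the spread between single mice is not known. The number of arrays, 2 per group, limits the precision.

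Named are, among called genes without overlap, the 15 that rose most and the 15 that fell most, up to 15 genes called under both treatments, Mt1, Mt2, Myh7, Nppa, Nppb, Cdkn1a, Hmox1 and Nqo1, and up to 4 members of a list with the smallest p. Others were chosen after their values were seen. The arrays, the lists and the tests were chosen with earlier results of these data known. Alternatives were the deposited and median scalings, pseudocounts of 1 and 64, no filter and a filter of 4 arrays, eBayes without trend or robust, only the compared groups, the replicate block, the mean of a gene's probe sets, and each array left out in turn.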

Additional observations from a re-analysis of the deposited data

How the results depend on the processing

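The DOX comparison called 70 probe sets, and 36 with only the 4 compared arrays in the fit, where fewer degrees of freedom remain. With the replicate block it called 383, and with 1 array left out between 23 and 62. The saline comparison called 46, 209 with the block and 15 to 50 with 1 array left out. The interaction called 0, 1 with the block (Lcn2) and 0 to 1 with 1 array left out (S100a8, without MT+/+ saline 1). Median scaling gave 37 higher and 23 lower after DOX and moved the median of all genes from -0.005 to +0.034, and the other scalings, pseudocounts, filters and eBayes settings gave 64 to 80 called probe sets. The mean of a gene's probe sets called 48 genes where the brightest called 38. Over the 39 genes picked by the rule or always given, Mt2, which was not called, turned to -0.35 without MT+/+ DOX replicate 1 (adjusted p 0.685; -0.35 to +0.79 with 1 array left out), and no other changed direction under these alternatives. Of these 39, 31 had a call, and 17 of those 31 lost it with only the compared groups. The 7 called genes outside the rule lost it there too (adjusted p from 0.0967 for Eda to 0.245 for Ogn). With the mean of probe sets 5 of the 31 lost it (Zfp991, Myocd, Gdpd1, Mccc1 and Smim10l1). Outside the rule Eda (adjusted p 0.193) and Ogn (0.0762) did so as well. Of the 31, 5 lost the call after median scaling and 3 with the deposited scaling, while the block added Mt1, Nppa and Hmox1. Without the trend Tecr (adjusted p 0.0697) and Gpx3 (0.0737) lost it. Why single settings moved a count was not tested.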

Other observations

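Outside the groups described so far, contractile and membrane genes of heart muscle differed little between the genotypes after DOX. Of 23 measured sarcomere genes 0 were called, with a median of 0.0, and of 18 calcium handling genes 0 were called, with a median of -0.11. Hrc, a calcium-binding protein of the sarcoplasmic reticulum, read 3389 and 4198 on the MT+/+ DOX arrays against 2553 and 3329 (-0.45 ± 0.13, adjusted p 0.317, or 0.0380 with the replicate block in limma). Scn4b, an accessory subunit of the cardiac sodium channel, read 98.9 and 131 against 50.8 and 63.1 (-0.80 ± 0.19, adjusted p 0.229, or 0.0133 blocked), and had -0.88 under saline. Cd59a, which shields cells from the membrane attack complex of complement, read 1095 and 1309 against 389 and 224 (-1.95 ± 0.38, adjusted p 0.115, or 0.0172 blocked). It had -1.67 under saline, so the genotype difference was of like size with and without the drug.

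Heat shock and proteasome genes stood mostly above 0, where 48.9% of all genes did, or 58.2% after median scaling. Of 18 heat shock and cold-induced genes 13 did, with a median of +0.18 and 0 calls. Hspb1, a small heat shock protein, read 4640 and 4497 against 6475 and 8955 (+0.71 ± 0.13, adjusted p 0.0974, or 0.0197 with the block in limma). Sqstm1, the autophagy receptor p62, read 3833 and 4508 against 6037 and 7056 (+0.61 ± 0.14, adjusted p 0.206), and had -0.03 under saline. Of 26 proteasome genes 18 were above 0, or 23 after median scaling, with a median of +0.07, and 0 were called. Of 23 measured genes of ER stress and the amino acid response 13 were above 0, with a median of +0.02 and 0 calls. Prdx3, the peroxiredoxin of mitochondria, read 4059 and 4563 against 2731 and 3281 (-0.60 ± 0.11, adjusted p 0.108, or 0.0109 blocked). Dbp, an output gene of the circadian clock, read 524 and 410 against 234 and 210 (-1.02 ± 0.24, adjusted p 0.206, or 0.0322 blocked). Under saline Dbp was lower in both genotypes, between 86.2 and 154. The time of day at which hearts were taken is not in the labels, and its part in the Dbp values was not tested.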
